A study of Mus musculus with 16 samples.

Results

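The genes described here are 9 genes of branched-chain amino acid breakdown, namely Bcat2, Bckdha, Bckdhb, Dbt, Dld, Bckdk, Ppm1k, Ivd and Hibadh. They were taken by name from the mRNA table, and all 9 were found among 23235 gene names and kept among the 15364 genes with enough counts to be tested. RNA was sequenced from skeletal muscle of 16 male C57BL/6 mice, bought as C57BL/6J at 6 weeks of age, with 4 mice in each of 4 groups. The control group ate a normal diet, and the HFD group ate a high-fat diet (D12492J feed, 60% fat) whose insulin-resistant state was set up over 8 weeks. Mice of the HFD + RSV group (written "HFD + reveratrol" in the labels, for resveratrol, a plant polyphenol) and of the HFD + MET group (metformin, a glucose-lowering drug) received the same high-fat diet and then their drug for 6 weeks. The labels do not name the muscle that was taken, and all 4 HFD mice carry the number 7 in their names while the other groups carry other numbers. Whatever that number marks cannot be told apart from membership of the HFD group. This holds for the comparison with control and for both drugs against HFD.

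The libraries held between 17625909 and 29761026 mRNA counts each, with a median of 22724161. The extraction text in the labels speaks of retinas, but the muscle markers (6 genes) summed to 134339 to 256747 CPM (counts scaled to library size) in every mouse, whereas the photoreceptor markers summed to 0.275 to 1.33 CPM and Gnat1 was at 0 in all 4 HFD mice. Control replicate 3 and HFD + MET replicate 3 stood apart, with 6508 and 5879 CPM of white adipocyte markers. A fit without both mice, chosen after the data were seen, is given beside each comparison.

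Leucine, isoleucine and valine are broken down largely outside the liver, and skeletal muscle is a main site of the opening step. Bcat2 moves the amino group to 2-oxoglutarate in the mitochondrion and leaves branched-chain keto acids. These are then decarboxylated by the branched-chain keto acid dehydrogenase complex, built from E1 (Bckdha and Bckdhb), E2 (Dbt) and E3 (Dld, which also serves the pyruvate and 2-oxoglutarate dehydrogenases). Bckdk phosphorylates the E1 alpha subunit and turns the complex off, and Ppm1k removes the phosphate and turns it on. Ivd then acts on the leucine branch and Hibadh on the valine branch.

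The upstream sequences of 3 members are shown, because the deposited counts placed Bcat2 on more than 1 start and because the kinase and the phosphatase of the complex had fold changes of opposite sign under the high-fat diet. Each run is the 250 bases before a RefSeq start on GRCm38.p6, written 5′ to 3′ on the gene's strand, with any match to a searched motif in capitals. The Bcat2 run is at chr7:45569903-45570152 on the plus strand, the Bckdk run is at chr7:127903823-127904072 on the plus strand, and the Ppm1k run is at chr6:57535488-57535737 on the minus strand.
Bcat2 upstream start: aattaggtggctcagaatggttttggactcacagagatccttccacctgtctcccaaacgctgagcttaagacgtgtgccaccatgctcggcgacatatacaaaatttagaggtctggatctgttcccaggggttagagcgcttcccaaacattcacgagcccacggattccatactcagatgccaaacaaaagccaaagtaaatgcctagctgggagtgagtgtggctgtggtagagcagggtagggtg
Bckdk: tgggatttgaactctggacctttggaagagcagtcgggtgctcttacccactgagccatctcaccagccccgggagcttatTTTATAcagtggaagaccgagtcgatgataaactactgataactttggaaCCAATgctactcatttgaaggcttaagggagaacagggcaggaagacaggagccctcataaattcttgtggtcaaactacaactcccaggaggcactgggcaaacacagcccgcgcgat
Ppm1k: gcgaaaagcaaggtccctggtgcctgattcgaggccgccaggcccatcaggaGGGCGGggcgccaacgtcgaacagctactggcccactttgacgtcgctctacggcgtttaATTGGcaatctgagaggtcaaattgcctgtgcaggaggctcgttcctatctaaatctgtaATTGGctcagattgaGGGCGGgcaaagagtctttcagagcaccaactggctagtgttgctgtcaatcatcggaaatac

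The capitals in Bckdk are a TATA box on the minus strand (TTTATA) and a CCAAT box, and those in Ppm1k are 2 GC boxes (GGGCGG) and 2 CCAAT boxes on the minus strand (ATTGG). The Bcat2 run held none of the 6 motifs searched on both strands. Of the 10 RefSeq starts found for 8 members (Dbt had no entry), 6 had a CCAAT box, which 33.8% of all 32851 promoters of this length had. A GC box was in 3 of the 10 starts and in 32.7% of all promoters, and a TATA box (TATAAA) was in 1 and in 12.4%. None of the 10 held AAGGTCA, which estrogen-related receptors bind (4.08% of all promoters), the E-box CACGTG (6.02%) or the NRF1 core GCATGCGC (2.26%). A match describes letters only and was not tested for binding.

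Levels between genes were compared as FPKM, which is per transcript length. Dld was the highest, with a median of 79.4 FPKM over the 16 mice (range 63.2 to 124), and it was above Bckdha in every mouse. Bckdha (median 56.4) and Hibadh (56) could not be ordered, since Bckdha was the higher of them in 5 of 16 mice. Bckdk followed at 29.3 FPKM and was above Ivd (21.1) in 12 mice. Ivd and Bcat2 (20.9) could not be ordered either, with Ivd higher in 8 of 16. Bckdhb (12.8) was above Dbt (11) in 14 mice, and Ppm1k was the lowest in all 16, with a median of 4.75 FPKM and a range of 3.04 to 8.8. The kinase of the complex therefore had a higher FPKM level than its phosphatase in every mouse, and the E3 subunit a higher level than the other subunits.

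**Figure D1:**
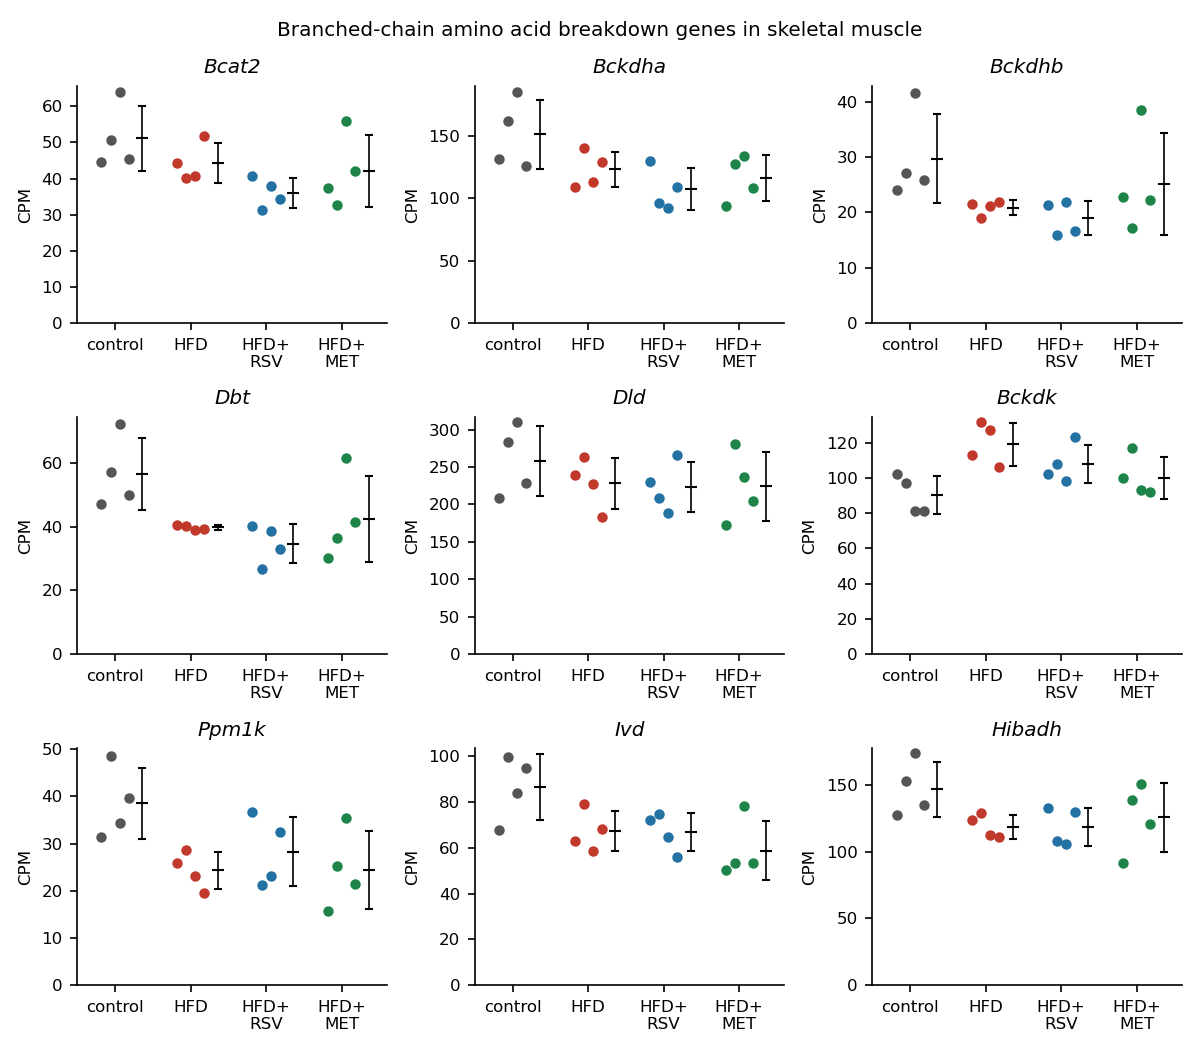
CPM of the 9 genes (y axis, from 0) in each of the 16 mice by group (x axis), with the group mean and SD as a black bar to the right of its 4 points. Bckdk is higher in the 4 HFD mice than in the 4 control mice, and Bckdhb, Dbt and Ppm1k are lower in the HFD mice.

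The comparison of the HFD group with the control group asked whether these mRNAs differed with the diet. Of the 9 genes, 8 had a log2 fold change (log2FC) below 0, as did 52.4% of all genes tested, and Bckdk was the exception. None of the 9 passed an adjusted P of 0.05 in edgeR's quasi-likelihood test with Benjamini-Hochberg adjustment over all genes, where 2.43% of all genes passed. At an unadjusted P below 0.05 there were 5 of 9, against 24.2% of all genes. These were Bckdhb, Dbt, Ppm1k and Ivd with lower values (12.5% of all genes were lower at that P) and Bckdk with a higher value (11.7% were higher). DESeq2 called 1 of the 9, Bckdk, and 10% of all genes. The median log2FC of the 9 genes was -0.31, beside -0.018 over all genes.

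Bckdk, the inhibitory kinase (chromosome 7, 127904082 to 127910221, plus strand), had 102, 97.1, 81.2 and 81.4 CPM in the 4 control mice and 113, 132, 127 and 106 CPM in the 4 HFD mice. Each HFD mouse was above each control mouse. The means were 90.5 ± 10.7 and 119 ± 12 CPM (SD, n = 4 mice each), a log2FC of 0.40 ± 0.112 (SE) with an adjusted P of 0.066 in edgeR. This is 1.32-fold and stayed above the threshold of 0.05. In a fit to the 12 mice other than the metformin group, which called 10.7% of all genes, the adjusted P was 0.038. In DESeq2, which called 10%, it was 0.0125. Over all 25 alternative settings the log2FC lay between 0.24 and 0.46 and the adjusted P between 0.0125 and 0.185.

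Ppm1k, the activating phosphatase (chromosome 6, 57506502 to 57535468, minus strand), had 31.3, 48.6, 34.3 and 39.6 CPM in the control mice and 25.9, 28.6, 23.2 and 19.6 CPM in the HFD mice. Again the groups did not overlap, here with the HFD mice below. The log2FC was -0.66 ± 0.235, the largest in size of the 9 genes in this comparison, with an adjusted P of 0.113 in edgeR, and the adjusted P ranged from 0.0483 to 0.244 over the alternatives. An antisense transcript, Gm45193, covers the whole Ppm1k gene on the opposite strand, and the library preparation described by the authors does not mark strand. Counts listed for lncRNAs that overlap the Ppm1k span, each taken in full, came to 3.87% to 9.52% of the Ppm1k count in control mice, but to 36.2% in HFD replicate 4 and 38.4% in HFD + MET replicate 2. The part of this overlap in the Ppm1k values was not tested.

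The ratio of Bckdk to Ppm1k CPM, which describes the balance of the kinase and phosphatase mRNAs within a library, was 3.27, 2, 2.37 and 2.05 in the control mice. It was 4.37, 4.62, 5.45 and 5.42 in the HFD mice, above every control mouse. With resveratrol it was 2.78, 5.1, 4.26 and 3.77, and with metformin 6.41, 4.64, 2.63 and 4.29. Both drug groups overlapped the HFD group and each had 1 mouse within the control range, replicate 1 of HFD + RSV and replicate 3 of HFD + MET. The group means were 2.42 ± 0.586, 4.96 ± 0.552, 3.98 ± 0.969 and 4.49 ± 1.55 for control, HFD, HFD + RSV and HFD + MET (SD, n = 4). The ratio was formed after both genes had been seen and carries no test.

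**Figure D2:**
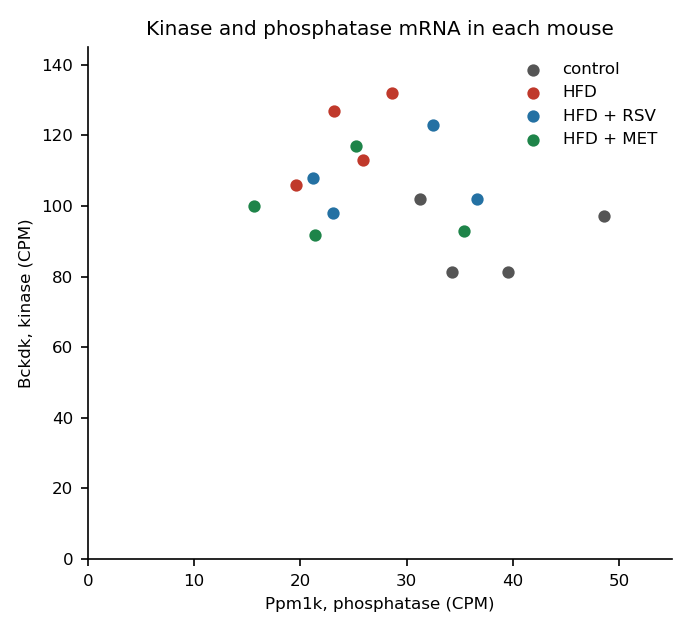
Bckdk CPM (y axis) against Ppm1k CPM (x axis) in each of the 16 mice, coloured by group, both axes from 0. The HFD mice lie at the upper left, with Bckdk at 106 to 132 and Ppm1k at 19.6 to 28.6 CPM, and the control mice lie lower and to the right.

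Among the catalytic subunits, Dbt, the E2 core of the complex (chromosome 3, 116513070 to 116549981, plus strand), had 47.2, 57.3, 72.3 and 50 CPM in control mice and 40.7, 40.4, 39 and 39.3 CPM in HFD mice. The HFD values lay within 2 CPM of each other and below every control value. The log2FC was -0.51 ± 0.193 with an adjusted P of 0.131 in edgeR, and 0.0431 in the fit to 12 mice. Bckdhb, the E1 beta subunit (chromosome 9, 83925145 to 84124240, plus strand), had 24.1, 27.2, 41.6 and 25.9 CPM in control mice and 21.6, 19, 21.2 and 21.9 CPM in HFD mice. These groups did not overlap either, although 1 control mouse, replicate 3, was far above the other control mice. The log2FC of Bckdhb was -0.51 ± 0.221 (adjusted P = 0.179 in edgeR), and it shrank to -0.30 when control replicate 3 was left out. In all, 4 of the 9 genes (Bckdhb, Dbt, Bckdk and Ppm1k) did not overlap between the HFD and control groups, against 18.3% of all genes tested.

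Bckdha, the E1 alpha subunit that carries the regulatory phosphate (chromosome 7, 25629946 to 25658981, minus strand), had 131, 162, 185 and 126 CPM in control mice and 109, 140, 113 and 129 CPM in HFD mice. The ranges overlapped, and the log2FC was -0.30 ± 0.152 (adjusted P = 0.246 in edgeR). Dld, the shared E3 subunit (chromosome 12, 31331277 to 31351453, minus strand), ranged from 208 to 310 CPM in control mice and from 183 to 264 CPM in HFD mice, with a log2FC of -0.17 ± 0.171 (adjusted P = 0.559). The 4 subunits of the complex thus had log2FC values from -0.51 to -0.17, and none passed the test.

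Bcat2, the mitochondrial transaminase (chromosome 7, 45570153 to 45589711, plus strand), had 44.6, 50.8, 64 and 45.3 CPM in control mice and 44.3, 40.2, 40.6 and 51.9 CPM in HFD mice. The groups overlapped, with a log2FC of -0.21 ± 0.159 (adjusted P = 0.437 in edgeR). Ivd, isovaleryl-CoA dehydrogenase of the leucine branch (chromosome 2, 118861954 to 118882909, plus strand), had 67.7, 99.9, 83.8 and 95.1 CPM in control mice and 63.1, 79, 58.6 and 68.1 CPM in HFD mice. Its groups overlapped through the lowest control mouse, replicate 1, and the log2FC was -0.37 ± 0.157 (adjusted P = 0.172). Hibadh, 3-hydroxyisobutyrate dehydrogenase of the valine branch (chromosome 6, 52546228 to 52640389, minus strand), ranged from 128 to 174 CPM in control mice and from 111 to 129 CPM in HFD mice, with a log2FC of -0.31 ± 0.144 (adjusted P = 0.21).

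**Figure D3:**
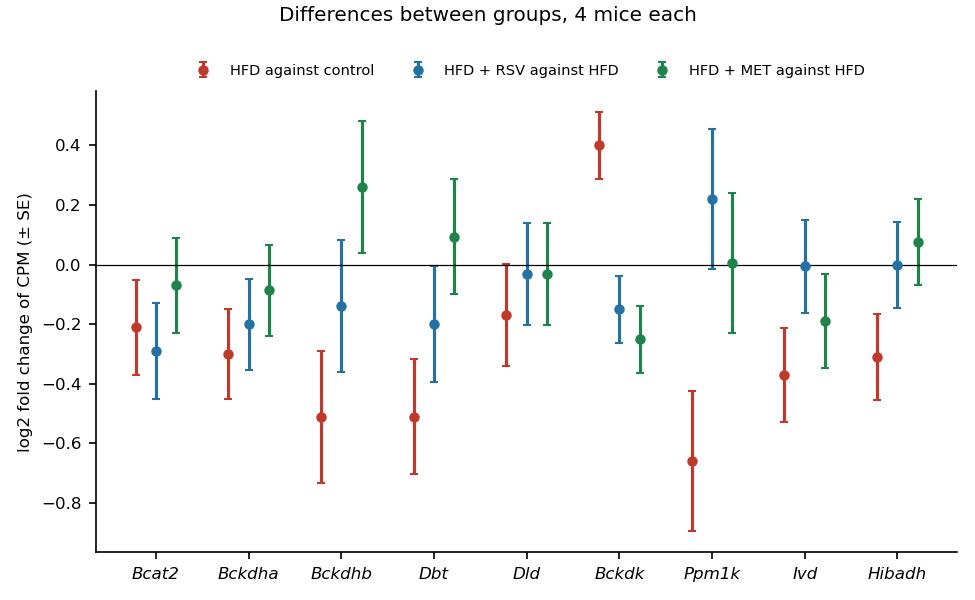
log2FC of CPM with its SE (y axis) for the 9 genes (x axis) in 3 comparisons of 4 mice with 4 mice. In red (HFD against control), 8 genes lie below 0 and Bckdk lies at 0.40, whereas the points for both drugs against HFD lie between -0.29 and 0.26.

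Of the white adipocyte markers (8 genes), 7 had a log2FC below 0 for HFD against control, as did 52.4% of all genes. At an unadjusted P below 0.05 in edgeR 4 of them were lower (12.5% of all genes were), and none was called (2.43%). The 8 markers summed to 1363 to 6508 CPM in control mice and 222 to 1230 CPM in HFD mice, with no marker at 0 in either group. The 4 brown adipocyte markers summed to 31.3 to 752 CPM and 3.89 to 5.11 CPM. Without control replicate 3, the log2FC of HFD against control was -0.087 for Bcat2, -0.19 for Bckdha, -0.30 for Bckdhb, -0.37 for Dbt, -0.076 for Dld and -0.22 for Hibadh. Without both mice highest in adipocyte markers, a choice made after the data were seen, Ppm1k had a log2FC of -0.72 ± 0.222 (adjusted P = 0.0893 in edgeR), Ivd -0.39 ± 0.14 (adjusted P = 0.137), Dbt -0.37 ± 0.135 (adjusted P = 0.136) and Bckdk 0.35 ± 0.118 (adjusted P = 0.114). In that fit 5 of the 9 genes had an unadjusted P below 0.05, beside 21% of all genes, and none was called. Slow fibre markers (6 genes) summed to 9.77 to 1486 CPM in control mice and 6.84 to 117 CPM in HFD mice, and all 6 had a log2FC below 0. Fast fibre markers (5 genes) summed to 38766 to 68249 and 65221 to 73045 CPM, and 2 of the 5 had a log2FC below 0. The ranges of the sums overlapped in both lists through control replicate 1 (9.77 and 68249 CPM), and no gene of either was called. The slow fibre markers had a median log2FC of -3.74, and all 6 were lower at an unadjusted P below 0.05 in edgeR (12.5% of all genes were). The fast fibre markers had a median log2FC of 0.49, and 3 of the 5 were higher at that P (11.7% of all genes were). In whole muscle pieces, fewer cells of a type and less RNA per cell cannot be told apart, and the part of the marker differences in the results was not tested.

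Over the 16 mice, log2 CPM of Bckdhb followed the log2 summed white adipocyte markers with r = 0.83, Bcat2 with 0.67 and Dbt with 0.60, and Bckdk ran the other way with r = -0.77. After the group means were subtracted these values were 0.79, 0.67, 0.41 and -0.62. For Ivd r was 0.45, for Bckdha 0.30, for Hibadh 0.23, for Ppm1k 0.20 and for Dld -0.12. In that order, these became 0.31, -0.0058, -0.13, -0.19 and -0.39 after the group means were subtracted. The points of such a correlation share the library and its scaling, so the values are a description.

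**Figure D4:**
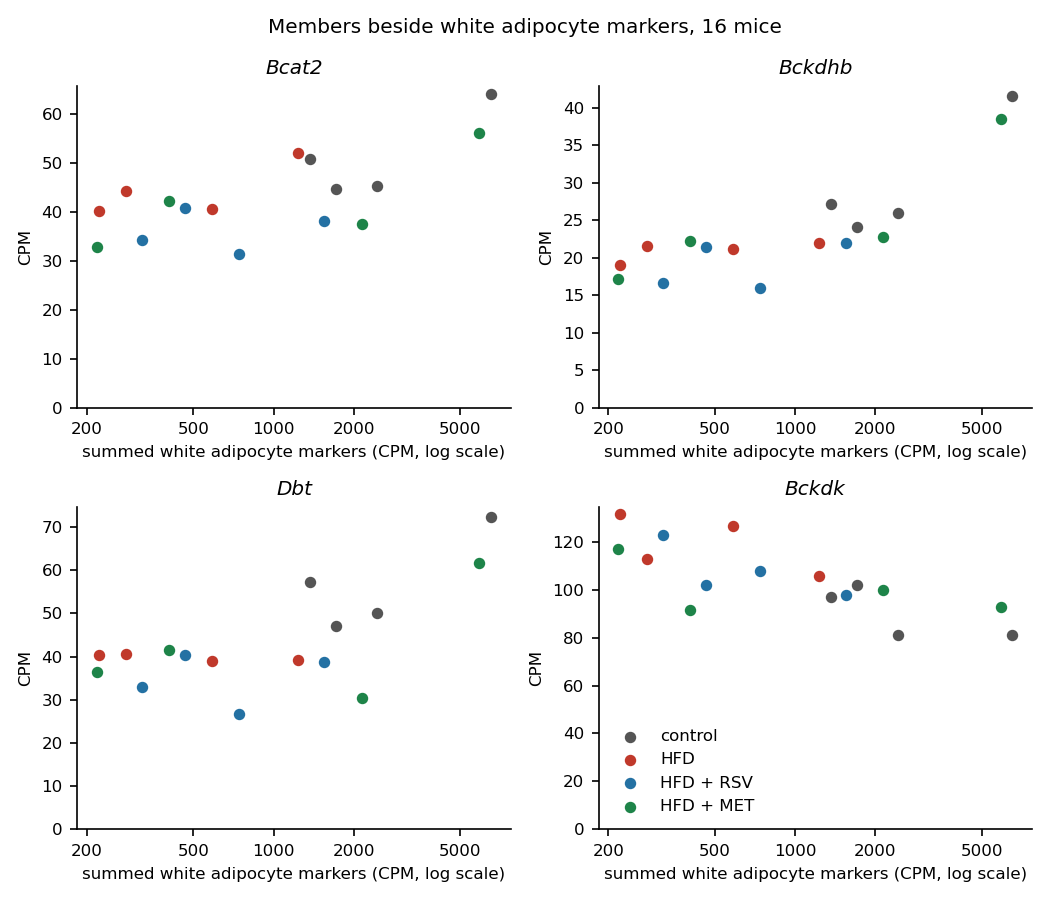
CPM of Bcat2, Bckdhb, Dbt and Bckdk (y axis, from 0) against the summed CPM of 8 white adipocyte markers (x axis, log scale) in the 16 mice, coloured by group. The points at the far right are control replicate 3 (6508) and HFD + MET replicate 3 (5879), where Bckdhb was 41.6 and 38.5 CPM.

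Resveratrol was compared with the untreated HFD group. None of the 9 genes passed an adjusted P of 0.05 (0% of all genes did), none had an unadjusted P below 0.05 (4.72% of all genes did), and DESeq2 called none of them (0.0521% of all genes). None of the 9 had groups that did not overlap, against 4.2% of all genes. Bcat2 was at 40.8, 31.3, 38 and 34.3 CPM in the HFD + RSV mice, and its log2FC against HFD was -0.29 ± 0.16 (unadjusted P = 0.0871, adjusted P = 0.999 in edgeR), the largest in size of the 9. Without both mice highest in adipocyte markers Bcat2 was at -0.28, with an unadjusted P of 0.0245 and an adjusted P of 0.777 in edgeR, and it was the only member with an unadjusted P below 0.05 (5.98% of all genes). Ppm1k was at 36.6, 21.2, 23.1 and 32.5 CPM, with a log2FC of 0.22 ± 0.235 (adjusted P = 0.999), and Bckdk at 102, 108, 98.1 and 123 CPM, with -0.15 ± 0.112 (adjusted P = 0.999). For Dld, Ivd and Hibadh the log2FC was between -0.033 and -0.0028, and its sign turned with the scaling of the libraries.

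Metformin was compared with the untreated HFD group in the same way. None of the 9 genes was called at an adjusted P of 0.05 in edgeR (0.013% of all genes were) or in DESeq2 (0.202%), and none had groups that did not overlap (3.72% of all genes). Only Bckdk had an unadjusted P below 0.05, where 8.02% of all genes did. It stood at 100, 117, 92.9 and 91.8 CPM in the HFD + MET mice, 1 of which was within the HFD range. The log2FC was -0.25 ± 0.112 (unadjusted P = 0.0416, adjusted P = 0.618 in edgeR), and it was -0.21 (unadjusted P = 0.0945) without both mice highest in adipocyte markers. Bckdhb was at 22.8, 17.2, 38.5 and 22.2 CPM and Dbt at 30.3, 36.5, 61.8 and 41.5 CPM, and in both genes replicate 3 was far above the other mice of its group. Without that mouse the log2FC against HFD went from 0.26 to -0.015 for Bckdhb, from 0.093 to -0.14 for Dbt, from 0.0059 to -0.23 for Ppm1k and from -0.19 to -0.36 for Ivd. Without both mice Ivd was at -0.36 ± 0.142 (unadjusted P = 0.0247, adjusted P = 1 in edgeR), the only member with an unadjusted P below 0.05, beside 4.18% of all genes.

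Each drug group was also compared with the control group, which the comparison of HFD with control shares. With resveratrol, 7 of the 9 genes had an unadjusted P below 0.05 (15.8% of all genes did) and none passed the adjustment (0.00651% of all genes), while DESeq2 called Dbt and 2.34% of all genes. Dbt was at 40.3, 26.8, 38.8 and 33 CPM with resveratrol, all below the lowest control mouse, with a log2FC against control of -0.71 ± 0.194 (adjusted P = 0.155 in edgeR and 0.0305 in DESeq2). In this comparison 3 genes, Bcat2, Bckdhb and Dbt, did not overlap between groups, against 11.3% of all genes. Without both mice highest in adipocyte markers, 6 genes had an unadjusted P below 0.05 (14.2% of all genes did), none was called (0.342% of all genes were), Dbt was at -0.57 (adjusted P = 0.0925 in edgeR) and Bckdk was at 0.21 (unadjusted P = 0.0993). With metformin, 4 of the 9 genes (Bckdha, Dbt, Ppm1k and Ivd) had an unadjusted P below 0.05 against control, beside 9.5% of all genes. None passed the adjustment there, as none of all genes did (0%), none was called by DESeq2 (0.918%), and none had groups that did not overlap (3.53% of all genes). Ivd was at 50.4, 53.3, 78.2 and 53.3 CPM with metformin, and its log2FC against control was -0.56 ± 0.157 (adjusted P = 0.257 in edgeR). Without HFD + MET replicate 3 the log2FC of Ivd was -0.73 and its adjusted P 0.0315, in a fit that called 1.16% of all genes. Without both mice it was -0.75 with an adjusted P of 0.0648, no member was called, and 6 had an unadjusted P below 0.05, beside 13.8% of all genes.

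Between the drugs, none of the 9 genes had an unadjusted P below 0.05 (4.68% of all genes did) or an adjusted P below 0.05 (0% did), and DESeq2 called none (0.0651%). The value furthest from 0 was that of Bckdhb, with a log2FC of HFD + RSV against HFD + MET of -0.40 ± 0.221 (adjusted P = 0.962 in edgeR). That value rested on HFD + MET replicate 3, without which it was -0.12 ± 0.179. Without both mice highest in adipocyte markers Bckdhb was again at -0.12, Ppm1k was furthest from 0 at 0.46 ± 0.226 (unadjusted P = 0.0661), and Ivd had 0.36 ± 0.142 (unadjusted P = 0.0237, adjusted P = 1 in edgeR). Ivd was then 1 of 9 members with an unadjusted P below 0.05, beside 2.67% of all genes. A test for any difference among the 4 groups gave an unadjusted P below 0.05 for 7 of the 9 genes, all but Dld and Hibadh, beside 15.4% of all genes. None passed the adjustment in edgeR (0.117% of all genes) and DESeq2 called none (5.03%). The lowest adjusted P was that of Dbt at 0.235, and it was 0.0413 without HFD + MET replicate 3, a fit in which Ivd also passed at 0.0437 and 3.05% of all genes were called. Without both mice no member was called (0.561% of all genes were), and 5 had an unadjusted P below 0.05, beside 13.7% of all genes.

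The other enzymes of the pathway (22 genes, all tested) had a median log2FC of -0.25 for HFD against control, with 19 of 22 below 0 (52.4% of all genes were). None was called at an adjusted P of 0.05 (2.43% of all genes were). At an unadjusted P below 0.05, 7 were lower (12.5% of all genes) and none higher (11.7%). The genes with the smallest P over all comparisons were Acadsb, Hsd17b10 and Hibch. Hibch, which hydrolyses 3-hydroxyisobutyryl-CoA just before Hibadh acts, had 48.1, 55.9, 98.8 and 52.5 CPM in control mice and 37, 40.1, 36.6 and 35.8 CPM in HFD mice. The groups did not overlap (as for 18.3% of all genes), and the log2FC was -0.77 ± 0.242 (adjusted P = 0.0842 in edgeR). Hibch was far above the others in control replicate 3, without which the log2FC was -0.48 ± 0.205 (adjusted P = 0.263). Without both mice highest in adipocyte markers it was -0.49 ± 0.076 (adjusted P = 0.00877), which passed in a fit that called 3.58% of all genes. Hsd17b10, a dehydrogenase of the isoleucine branch, had a log2FC of -0.53 ± 0.177 in the same comparison (adjusted P = 0.0996), and -0.35 without control replicate 3 (adjusted P = 0.3) as well as without both mice (adjusted P = 0.0746). Its smallest P was for HFD + RSV against control, with -0.65 ± 0.178 (adjusted P = 0.156 in edgeR). Acadsb, the counterpart of Ivd on the isoleucine branch, had -0.11 ± 0.0939 for HFD against control. For HFD + RSV against control it had -0.39 ± 0.0941 (unadjusted P = 0.000859, adjusted P = 0.137 in edgeR). Acadsb was at 47.9, 37.2, 47.3 and 47 CPM in the HFD + RSV mice, all below the 56, 55.8, 55.3 and 50.3 CPM of the HFD mice, with a log2FC of -0.28 ± 0.0941 (unadjusted P = 0.0102, adjusted P = 0.999). These 2 groups did not overlap in 4.2% of all genes. Without HFD + MET replicate 3, edgeR's adjusted P for HFD against control was 0.0179 for Hibch and 0.0316 for Hsd17b10, and for HFD + RSV against control it was 0.0388 for Hsd17b10 and 0.0432 for Acadsb. That fit called 10.2% and 1.68% of all genes in these 2 comparisons, in place of 2.43% and 0.00651%. Against HFD, the list had a median log2FC of -0.07 with resveratrol and 0.06 with metformin, and none of its genes was called.

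**Figure D5:**
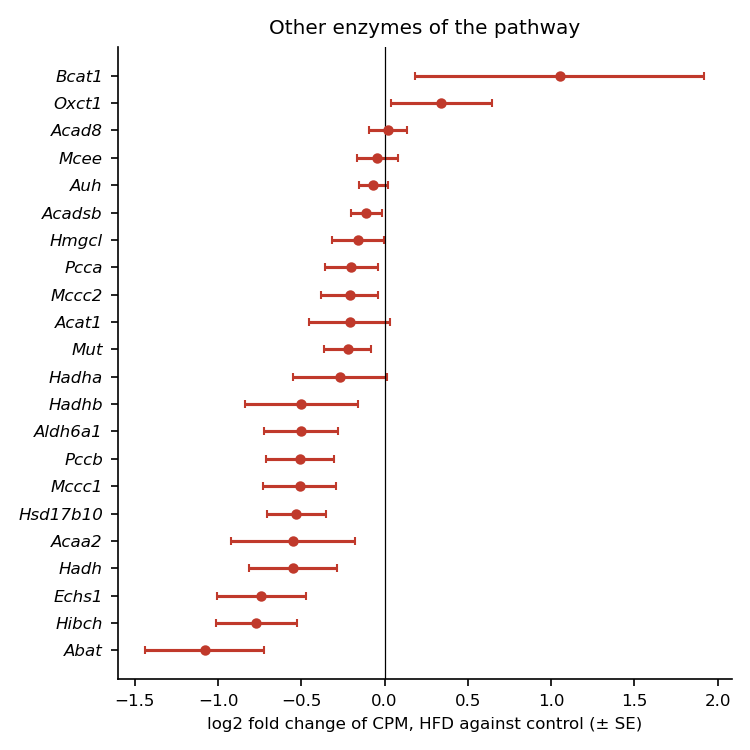
log2FC of HFD against control with its SE (x axis) for 22 other enzymes of branched-chain amino acid breakdown (y axis, sorted). The points of 19 genes lie below 0, from Abat at -1.08 upward, and Bcat1 lies at 1.05 with the widest SE.

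Of the transport and sensing genes (13 listed, 12 tested), Slc43a1, a transporter of large neutral amino acids, was called. It fell from 94.2, 58.2, 69.2 and 47.4 CPM in control mice to 27.9, 25.3, 27 and 43.6 CPM in HFD mice, a log2FC of -1.12 ± 0.278 (adjusted P = 0.0491 in edgeR). The call was kept in 6 of 25 alternatives, with an adjusted P of 0.00394 in DESeq2, 0.135 without control replicate 3, 0.138 without HFD replicate 1, 0.0663 without both mice highest in adipocyte markers and 0.158, the highest, with the number in the mouse name as a block. Its log2FC against HFD was 0.093 ± 0.276 with resveratrol and 0.34 ± 0.276 with metformin, neither of which passed. Among the sister complexes and their regulators (21 genes, all tested), Pdp2, a phosphatase that activates pyruvate dehydrogenase as Ppm1k activates the branched-chain complex, was called. Pdp2 fell from 38.5, 67.3, 51.8 and 29.4 CPM in control mice to 15, 21.4, 14 and 19.8 CPM in HFD mice, a log2FC of -1.41 ± 0.301 (adjusted P = 0.0362). This call was kept in 18 of 25 alternatives, with 0.000458 in DESeq2, 0.0125 without both mice, 0.105 without control replicate 3 and 0.108, the highest, without HFD replicate 1. The other 20 genes of that list were not called in any comparison. None of the 8 regulators was called, and their smallest unadjusted P values in any comparison were those of Ppara, Klf15 and Ppard. Klf15, a transcription factor of amino acid breakdown, had a log2FC of -0.61 ± 0.225 for HFD + RSV against control (adjusted P = 0.234), Ppara had -1.46 ± 0.487 in the same comparison (adjusted P = 0.203), and Ppard had 0.23 ± 0.0902 for HFD against control (adjusted P = 0.14). Without HFD + MET replicate 3, Ppara passed for HFD against control at -1.41 ± 0.407 (adjusted P = 0.0435 in edgeR), in a fit that called 10.2% of all genes. The 9 genes of mitochondrial content, none of which was called, had a median log2FC of 0.03 for HFD against control.

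At the level of transcripts, 33 transcripts of the 9 genes were tested and none was called at an adjusted P of 0.05 in edgeR, for HFD against control (0.0157% of all transcripts were), for HFD + RSV against HFD (0%) or for HFD + MET against HFD (0.00449%). At an unadjusted P below 0.05 there were 8, 3 and 7 of them, against 13.1%, 5.02% and 6.07% of all transcripts, and DESeq2 called 3, 1 and 1. Those were Bcat2-202, Bckdk-201 and Hibadh-202 for HFD against control, and Bcat2-202 alone for each drug against HFD. Bcat2-202 had 0 counts in every HFD mouse, and its DESeq2 log2FC values were -24.16, 22.27 and 21.47. It was also at 0 in control replicates 2 and 4, with 110 and 666 counts in control replicates 1 and 3. With resveratrol only replicate 3 had counts of it (190), and with metformin only replicate 4 (136). No share over all transcripts is given for these DESeq2 calls. A single transcript held at least 87.1% of the group mean in Bckdha, Dbt, Dld, Bckdk, Ppm1k, Ivd and Hibadh. In Bckdhb, Bckdhb-201 held 66.2% of the count in HFD mice and 89.1% in control mice on average, and Bckdhb-206 held 18.1% and 4.42%. That difference rested on HFD replicate 3 in part, where Bckdhb-206 reached 43.9% and Bckdhb-201 was at 33.9%.

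The deposited counts divided 3 coding transcripts of Bcat2 between starts differently in different mice. The transcripts Bcat2-201 (from 45570153) and Bcat2-202 (from 45570373) begin at the upstream start and code for 393 and 388 residues, whereas Bcat2-203 (from 45570996) begins downstream and codes for 353. Exon 1 of Bcat2-203 (45570996 to 45571552) holds no start codon, and its coding sequence opens in exon 3 (45575799 to 45576002), which all 3 transcripts share. Of the counts of these 3 transcripts, the upstream pair held 97.1% in control replicate 3, 79.2% in HFD replicate 3, 94.7% in HFD + MET replicate 3 and 95.8% in HFD + RSV replicate 3. In the other 12 mice it held between 0.744% and 23.5%. Among these 3 transcripts, each group thus had 1 mouse with mostly upstream counts, a pattern picked out after the values were seen. In every group it was replicate 3, a number that only gives the order of the accessions. The labels name no batch, and a technical source of the pattern was not tested. The summed white adipocyte markers in these 4 mice were 6508, 588, 5879 and 1548 CPM, the highest of the group in all but the HFD mouse. The division of fragments among overlapping transcripts was estimated by the authors' software, and Bcat2-206, which retains an intron, and Bcat2-204, which is annotated for nonsense-mediated decay, took a further 33.9% and 11.8% of the Bcat2 count in control mice. Bcat2-206 begins at 45570350, between the starts of Bcat2-201 and Bcat2-202, and was left out of the upstream share. Its mean share was 33.9%, 36.2%, 36.2% and 39.5% in control, HFD, HFD + RSV and HFD + MET mice. That of Bcat2-203 was 34.3%, 37.5%, 34.2% and 33.6%, so the upstream shares above describe the 3 transcripts only.

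Across the 16 mice, the 28 pairs among the 8 genes other than Bckdk had correlations of log2 CPM between 0.23 and 0.90 with a median of 0.66, and between 0.054 and 0.92 after group means were subtracted. Of the 8 pairs with Bckdk, 7 were below 0, from -0.72 with Bckdhb, but 4 were below 0 after group means were subtracted. Bcat2, Bckdhb and Dbt went together most closely (0.89 to 0.90). Hibadh had its highest values with Bckdha (0.87), Dld (0.86), Ppm1k (0.83) and Dbt (0.81). Of all tested genes, those most like Bcat2 were Mccc2 (r = 0.92), Bckdhb and Isoc2a (both 0.90). Bckdhb was most like Ralgapa2 (0.97), Aldh6a1 and Gnao1 (both 0.96), and Dbt most like Aldh6a1 (0.94), Mut and Isoc2a (both 0.92). Mccc2, Aldh6a1 and Mut are themselves enzymes of branched-chain amino acid breakdown. Genes like Dld included Ndufab1 and Dlat (both 0.95), and Hibadh was most like Abcd3, Slc25a20 (both 0.95) and Etfa (0.92). The closest genes were Aifm1 (0.92), Naprt and Snord14c (both 0.90) for Bckdha, Agtpbp1 (0.91), Taf5l (0.87) and Rtn4 (0.86) for Bckdk, Pank1 (0.92), Btg2 and Asap2 (both 0.90) for Ppm1k, and Rapgef5, Gcnt2 and Ifrd1 (each 0.84) for Ivd. These are descriptions over 16 libraries, which share depth and scaling within a library.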

How the data were processed

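Skeletal muscle RNA of 16 mice was sequenced after removal of ribosomal RNA, as paired-end libraries on an Illumina NovaSeq. The submitters' processing notes name fastp, HISAT2 and GRCm38, and the methods name StringTie 1.3.0. The authors deposited expected counts per transcript, which were whole numbers, beside FPKM values that matched the counts divided by length and by the total of both deposited tables within 0.0098%. Counts were summed per gene name, which joined 4 transcripts split over lines. Genes were filtered with filterByExpr (minimum count 10, minimum total count 15), scaled by TMM (factors 0.894 to 1.19) and fitted in edgeR 4.0.16 (R 4.3.3) with a quasi-likelihood model over all 16 mice, and P values were adjusted over 15364 genes or 44573 transcripts. SE is the absolute log2FC divided by the square root of F. Tested on simulated data for HFD against control over 15364 genes, the fit recovered 0%, 59.5% and 84% of 200 genes changed by a log2FC of 0.5, 1 and 2. DESeq2 1.42.0 and limma 3.58.1 on log2(FPKM + 1) and log2(FPKM + 0.1) were alternatives, as was a block for the number in the mouse name. Positions are from GENCODE M21.

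The 9 genes and the lists (other enzymes, transport and sensing, regulators, sister complexes, mitochondrial content, cell markers) were chosen with earlier results of these data known. All 9 genes are named, and of each other list the genes called in any comparison (at most 6), or else the 3 with the smallest P. Transcripts were named from a share of 10% upward. Of the genes most alike to each member, 1 is not reported here. Each mouse gave 1 library, and nothing in the labels says how mice were housed.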

Additional observations from a re-analysis of the deposited data

Results flagged for a closer look

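Each of the 9 genes was checked in each of the 4 groups for a mouse whose log2 CPM lay far from the other 3, by Dixon's ratio of the gap to the range. Of 36 groups checked, 1 was marked, and chance alone marks about 5% of groups. Ivd was at 78.2 CPM in HFD + MET replicate 3, the highest of its group, with a ratio of 0.874. White adipocyte markers summed to 5879 CPM in the same mouse, and their part in the Ivd value was not tested.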

How the results depend on the processing

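The mouse names end in numbers that recur between groups, and the labels do not say what these mark. Over 20 pairs of mice that share such a number across groups, deviations of log2 CPM from the group means had correlations of -0.358 to 0.298 (median -0.0578), and 6 were above 0.1. The 76 pairs with different numbers had -0.33 to 0.511 (median -0.0059), and 22 were above 0.1. Whether the number marks a batch was not tested. With that number as a replicate block, chosen after the data were seen, 0 of the 9 genes were called in any comparison, and 26 genes in all were called for HFD against control, in place of 374. Control replicate 1 was the only mouse with its number, so under the block it carried no weight in any comparison. The block also left 8 residual degrees of freedom, fewer than the fit without it. The part of either in the lower count was not tested. Under the block 2 values changed sign, to 0.038 for Hibadh with resveratrol against HFD and to -0.018 for Ppm1k with metformin against HFD.

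For HFD against control, none of the 225 alternative values of the 9 genes changed sign. Settings that left out only drug-treated mice kept every HFD and control mouse, so a change of sign was hardly possible in them. The number of the 9 genes called there was 0, but it was 1 with DESeq2 (10% of all genes were called), 3 with the 12 mice other than the metformin group (10.7%), 5 at an unadjusted P, and between 0 and 2 when 1 mouse was left out (1 without control replicate 1, with 4.95% of all genes, and 2 without HFD + MET replicate 3, with 10.2%). For HFD + RSV against control the number was 1 with DESeq2 (2.34% of all genes), 1 with the 12 mice (1.53%), 7 at an unadjusted P and 0 to 1 with 1 mouse left out (1.68% of all genes without HFD + MET replicate 3). For HFD + MET against control it was 4 at an unadjusted P and 0 to 1 with 1 mouse left out, for any of the 4 groups 7 and 0 to 2, and for HFD + MET against HFD 1 at an unadjusted P. No gene of the 9 met an unadjusted P below 0.05 with an absolute log2FC above 1. Transcripts called numbered 3, 1 and 1 with DESeq2 and 8, 3 and 7 at an unadjusted P (13.1%, 5.02% and 6.07% of all transcripts) for HFD against control, HFD + RSV against HFD and HFD + MET against HFD. For the DESeq2 counts no share over all transcripts is given, so they cannot be set against one. The DESeq2 call against HFD was Bcat2-202 for both drugs, a transcript with 0 counts in every HFD mouse and counts in only 1 mouse of each drug group.

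Without TMM the median log2FC of all genes moved to -0.18 for HFD against control, 0.067 for HFD + RSV against HFD and 0.14 for HFD + MET against HFD, and the share of genes below 0 in the first moved from 52.4% to 72.4%. With log2(FPKM + 1) those medians were -0.11, 0.04 and 0.085. Against HFD, 22 of 225 values with resveratrol and 31 of 216 with metformin changed sign, all of them from values that had not passed the test. With resveratrol, Dld was 0.034, Ivd 0.062 and Hibadh 0.06 without TMM, 0.028, 0.05 and 0.03 with log2(FPKM + 1), and 0.028, 0.052 and 0.031 with log2(FPKM + 0.1). With metformin, Bcat2, Bckdha and Dld were 0.07, 0.046 and 0.11 without TMM, and Bcat2, Bckdha, Dld and Ivd were 0.03, 0.02, 0.086 and 0.16 with log2(FPKM + 1) and 0.03, 0.021, 0.087 and 0.17 with log2(FPKM + 0.1). Ppm1k was -0.0027 with no filter on low counts. Without both mice highest in white adipocyte markers, Ivd was 0.0031 and Hibadh 0.0068 with resveratrol, and Bckdhb was -0.015, Dbt -0.14, Ppm1k -0.22 and Hibadh -0.023 with metformin. Leaving out 1 mouse gave, with resveratrol, -0.13 to 0.044 for Dld, -0.066 to 0.081 for Ivd and -0.059 to 0.05 for Hibadh. With metformin it gave -0.24 to 0.032 for Bcat2, -0.16 to 0.001 for Bckdha, -0.015 to 0.41 for Bckdhb, -0.14 to 0.22 for Dbt, -0.16 to 0.075 for Dld, -0.23 to 0.17 for Ppm1k and -0.024 to 0.20 for Hibadh. Apart from the scalings and the fewer samples, the cause of these changes was not tested.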

Other observations

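Counts listed for lncRNAs that overlap the spans of the 9 genes, each taken in full, were set beside the counts of the genes themselves. For Dbt they came to 7.83% to 11.8% of the gene's count in control mice and to 8.28% to 15.4% in HFD mice, and they reached 24.4% in HFD + RSV replicate 2. For Bcat2 they came to 8.49% to 14% over the 16 mice, for Hibadh to 4.94% to 13.8% and for Bckdhb to 1.32% to 3.78%. For Bckdha, Dld, Bckdk and Ivd they were below 1% in every mouse. The other markers of cell types included none that was called in any comparison, except Elovl3 and Cidea of the brown adipocyte list. Cidea fell from 41.6, 69.9, 285 and 21.5 CPM in control mice to 0.778, 1.12, 1.02 and 2.39 CPM in HFD mice (adjusted P = 0.0474 in edgeR), and it was at 81.4 CPM in HFD + MET replicate 3. Its adjusted P was 0.136 without control replicate 3 and 0.0121 without both mice highest in white adipocyte markers. Elovl3 was at 1.52, 5.4, 48.9 and 0.779 CPM in control mice and at 0 in 3 of 4 HFD mice (adjusted P = 0.0342 in edgeR), and its adjusted P was 0.0933 without control replicate 3 and 0.0201 without both mice. Schwann cell markers summed to 43.2 to 63.7 CPM in HFD mice and to 41.1 to 406 CPM in HFD + RSV mice, erythroid markers to 361 to 476 and 499 to 1392 CPM in HFD and HFD + MET mice, endothelial markers to 238 to 306 and 289 to 353 CPM in HFD and control mice, macrophage markers to 53.8 to 171 CPM and fibroblast markers to 742 to 1715 CPM over all mice.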
